A study of Rattus norvegicus with 9 samples.

Results

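The MHC class II genes of rat liver were followed in 9 male Wistar rats, 24 h after total-body irradiation (TBI) with or without a preceding herbal treatment. The list held 8 genes: Cd74, Ciita, RT1-Da, RT1-Ba, RT1-Bb, RT1-Db1, RT1-DMa and RT1-DMb. Its members were chosen by name, through the RefSeq accession that each array probe carries. Of the 13438 genes with a named probe on the array, 7 were on the list, with 11 probes between them. RT1-DMb was matched to no probe and is named only. Of the 9604 named genes tested for differences, 5 were on the list (Cd74, RT1-Da, RT1-Db1, RT1-Bb and RT1-DMa, with 9 probes).

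The rats formed 3 groups of 3, with 1 liver and 1 array per rat. Control rats were not irradiated. TBI rats received 6.5 Gy from a cobalt source at 2 Gy/min. HSC + TBI rats were given Hong Shan Capsule (HSC), a crude mixture of medicinal herbs, by mouth on each of the 3 days before the same exposure. The HSC dose is uncertain, because the sample labels give 30 mg/kg/day while the design text of the series gives 10 g/kg/day. Rats given HSC without irradiation were not analysed here. The age of the rats is not given in the sources used here. Controls shared 1 array slide, TBI rats a second, and HSC + TBI rats lay on 2 others, so slide and group cannot be told apart in any comparison.

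MHC class II molecules present peptides from engulfed material to CD4 T cells. Each is a pair of an alpha and a beta chain, and in the rat RT1-Da pairs with RT1-Db1 and RT1-Ba with RT1-Bb. Cd74, the invariant chain, guides the pair to the endosome and blocks its groove until RT1-DMa and RT1-DMb exchange the blocking fragment for a peptide. Ciita is the coactivator that switches the whole set on, through factors bound to a conserved X box and Y box before each gene. In liver the set is carried by dendritic cells, Kupffer cells, B cells and sinusoidal endothelium, and hardly by hepatocytes. Some of the chain genes are among the most variable between individuals.

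The X box and the Y box were looked for in RefSeq promoters of the rat assembly GRCr8, from 250 bases before to 50 bases after the start of each gene. The X core was searched as AGNNACNGA and the Y core as ATTGG, on either strand. Of 33469 promoters in the table, 18.1% held the X core, 37.5% held the Y core, and 0.684% held the X core followed on the same strand by the Y core after 5 to 40 bases. Promoters were at hand for 6 of the 8 genes, all but Ciita and RT1-DMb. The X core was found in 4 of these 6, the Y core in all 6, and the joint arrangement in 3, namely RT1-Da, RT1-Bb and RT1-Db1. The stretch around it is shown for these 3 and for RT1-Db2, a class II beta chain gene outside the list that enters below through its likeness to the listed genes. Capitals mark the X core, then the Y core.
RT1-Da, chr20:4515312-4515390, plus strand: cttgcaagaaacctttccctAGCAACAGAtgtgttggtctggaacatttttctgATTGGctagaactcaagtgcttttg
RT1-Db1, chr20:4560218-4560295, minus strand: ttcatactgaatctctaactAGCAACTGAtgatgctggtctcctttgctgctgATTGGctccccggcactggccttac
RT1-Bb, chr20:4604155-4604232, minus strand: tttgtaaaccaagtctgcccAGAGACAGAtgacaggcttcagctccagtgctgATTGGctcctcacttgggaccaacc
RT1-Db2, chr20:4541688-4541764, minus strand: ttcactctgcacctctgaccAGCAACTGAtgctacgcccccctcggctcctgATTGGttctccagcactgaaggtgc

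In RT1-Da the X core began at position -83 and the Y core at position -49 from the start of the gene, with 25 bases between them. In RT1-Db1 and in RT1-Bb the spacing was 24 bases, and in RT1-Db2 it was 23 bases. RT1-Ba held both cores without the joint arrangement, while Cd74 and RT1-DMa held the Y core only. Such a match is a description of letters and does not show that a factor was bound.

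Levels are given as log2 normalized signal, on which a difference of 1 is a 2-fold change. Signals of different probes have no common scale, so every comparison is between rats on one probe. A gene with several probes is described by its brightest tested probe unless stated otherwise. Because whole liver was measured, fewer cells of a type and less RNA per cell cannot be told apart. The irradiation labels were checked on Cdkn1a, a gene that p53 induces after DNA damage. Cdkn1a, which encodes the cell cycle inhibitor p21 and was picked for this check after its values were seen, lay 5.10, 5.30 and 5.70 above the control mean in TBI rats 1, 2 and 3 and 5.22, 4.75 and 4.66 above it in HSC + TBI rats 1, 2 and 3. From 56.6% to 59.3% of the probes were above background on control arrays, 63.6% to 69.5% on TBI arrays and 58.7% to 60.5% on HSC + TBI arrays.

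The class II genes split the TBI group. In TBI rats 2 and 3 all 5 tested genes lay above every control, by 2.10 to 3.52 over the control mean. In TBI rat 1 they lay from 1.43 below it to 0.14 above it, and 4 of the 5 were under every control. In the HSC + TBI rats all 5 genes lay below every control and below every TBI rat, and the 3 rats were close to each other. The median of the 5 genes stood 9.31-fold and 9.33-fold above the control mean in TBI rats 2 and 3, and 2.37-fold below it in TBI rat 1. In HSC + TBI rats 1, 2 and 3 it stood 3.22-fold, 2.99-fold and 3.29-fold below it.

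**Figure D1:**
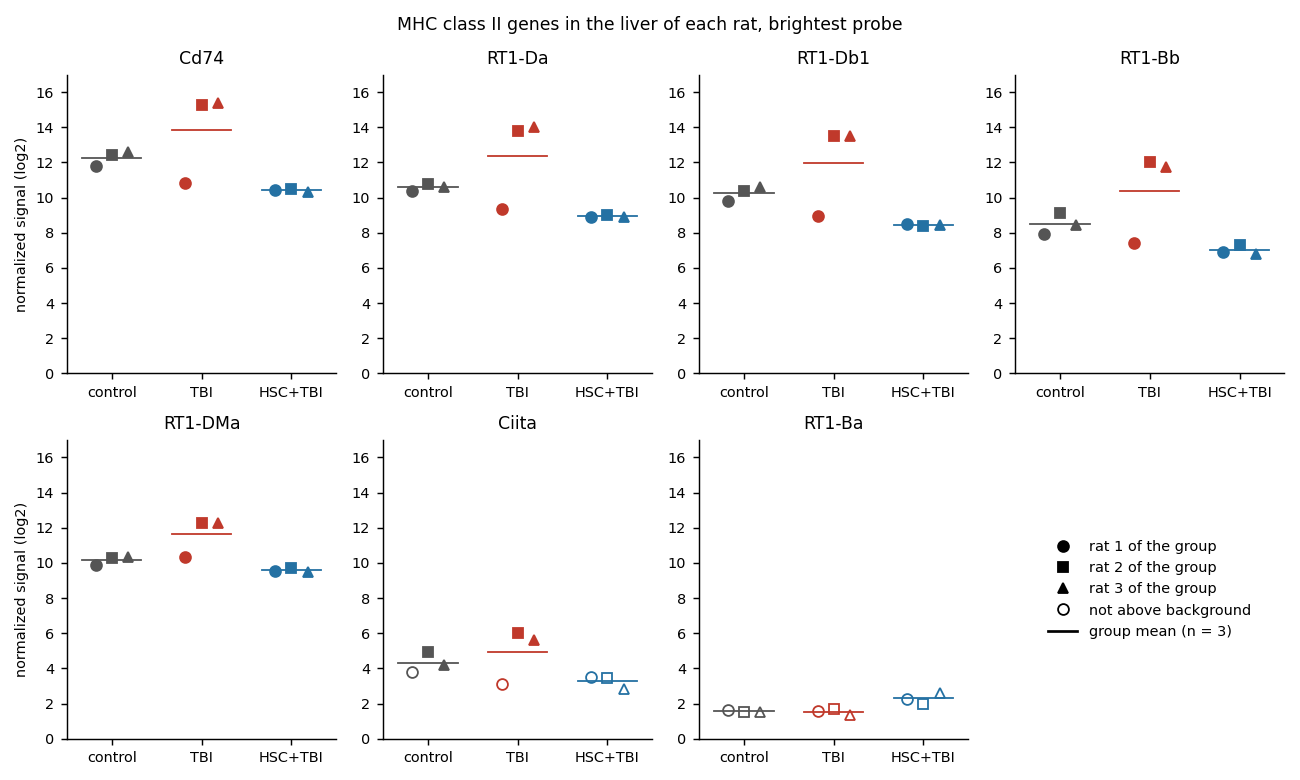
Normalized signal (log2) of 7 MHC class II genes in each of 9 rats, brightest probe of each gene, by group. Symbols tell the 3 rats of a group apart, open symbols are signals not above background, and lines are group means. TBI rats 2 and 3 sit above all controls for Cd74, RT1-Da, RT1-Db1, RT1-Bb, RT1-DMa and Ciita, whereas TBI rat 1 does not.

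Cd74, the invariant chain, read 11.82, 12.41 and 12.57 in control rats 1, 2 and 3, 10.83, 15.27 and 15.37 in TBI rats 1, 2 and 3, and 10.43, 10.48 and 10.31 in HSC + TBI rats 1, 2 and 3. TBI rats 2 and 3 were thus 8.02-fold and 8.59-fold above the control mean, and TBI rat 1 was 2.70-fold below it. The HSC + TBI rats were 3.57-fold, 3.46-fold and 3.87-fold below the control mean and did not overlap with either group.

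RT1-Da, the alpha chain of the D molecule, read 10.38, 10.76 and 10.60 in the controls, 9.33, 13.80 and 14.00 in the TBI rats, and 8.89, 9.0 and 8.92 in the HSC + TBI rats. Its second probe read 7.43, 7.76 and 7.87, then 6.33, 11.02 and 11.14, then 6.40, 6.41 and 6.26 in the same order. Both probes placed TBI rats 2 and 3 over all controls, by 3.22 and 3.42 over the control mean on the brightest probe, but on the second one TBI rat 1 lay among the HSC + TBI rats. RT1-Db1, the beta chain that pairs with it, read 9.80, 10.36 and 10.63 in the controls, 8.95, 13.51 and 13.49 in the TBI rats, and 8.49, 8.41 and 8.43 in the HSC + TBI rats. TBI rats 2 and 3 were 9.52-fold and 9.33-fold over the control mean.

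RT1-Bb, the beta chain of the B molecule, read 7.94, 9.10 and 8.43 in the controls, 7.44, 12.01 and 11.76 in the TBI rats, and 6.93, 7.33 and 6.77 in the HSC + TBI rats. TBI rats 2 and 3 were 11.45-fold and 9.64-fold over the control mean. The probe of its partner RT1-Ba was above background on none of the 9 arrays, with values from 1.36 to 2.62, so RT1-Ba has no measured difference here.

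RT1-DMa, one chain of the peptide exchange factor, had the smallest range among TBI rats of the 5 tested genes. It read 9.87, 10.29 and 10.34 in the controls, 10.31, 12.28 and 12.27 in the TBI rats, and 9.54, 9.74 and 9.51 in the HSC + TBI rats. TBI rats 2 and 3 were 4.33-fold and 4.29-fold over the control mean, while TBI rat 1 lay within the range of the controls. The HSC + TBI rats were 1.55-fold, 1.35-fold and 1.58-fold below the control mean, and their highest value, 9.74, was close to the lowest control, 9.87.

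Ciita, the coactivator of the set, was dim. Its probe was above background in control rats 2 and 3 and in TBI rats 2 and 3, and in no HSC + TBI rat, so it was not tested. It read 3.80, 4.95 and 4.19 in the controls, 3.11, 6.04 and 5.60 in the TBI rats, and 3.54, 3.46 and 2.82 in the HSC + TBI rats. TBI rat 1 was again the lowest of the TBI rats. Set against the lowest signal that counted as above background on each HSC + TBI array, the TBI mean was 2.45-fold higher and the control mean 1.62-fold higher. Each of these groups had 2 of 3 arrays above background, so neither value is a firm lower bound.

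The groups were compared by limma in 1 fit of the 3 group means over 25369 probes. Calls needed a change of 1.5-fold or more together with p under 0.05 after Benjamini-Hochberg adjustment. With 3 rats against 3, an exact two-sided permutation test of a single gene cannot go below 0.1.

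The TBI against control comparison asks what irradiation did to the class II genes. None of the 5 genes and none of the 9 probes was called, against 7.25% of all tested probes. Of the 5 genes, 1 had an unadjusted p under 0.05, as had 6463 of the 25369 probes, and with only these 2 groups in the fit again none was called. The median difference of the 5 genes was 1.72 (log2), and that of all tested probes was -0.01. Cd74 differed by 1.56 ± 1.04 (SE, n = 3) with an adjusted p of 0.383 by limma, and RT1-Da by 1.80 ± 1.05 with an adjusted p of 0.321. RT1-DMa came nearest to a call, with a difference of 1.45 ± 0.47 and an adjusted p of 0.0968. The SD of Cd74 was 2.59 among TBI rats and 0.40 among controls, so the mean difference was smaller than the spread among the TBI rats. Without TBI rat 1, all 5 genes were called higher, against 3.6% of all tested probes, with 8.30-fold for Cd74 (adjusted p = 0.000956 by limma) and 9.98-fold for RT1-Da (adjusted p = 0.000108). Without TBI rat 2 or without TBI rat 3, none was called. The difference of RT1-Bb became -1.80 under another background correction (normexp), under which its second probe was the brighter. The rat left out in the first case is the one whose class II values stood apart, so that result is no independent evidence of a rise.

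The HSC + TBI against control comparison asks where the pretreated rats stood against unexposed liver. All 5 genes were lower in every HSC + TBI rat than in any control, as were 13.7% of all tested probes. In the fit of the 3 groups none of the 5 was called, nor had any an unadjusted p under 0.05 (4964 of the 25369 probes had), against 3.23% of all tested probes called. The differences were -1.86 ± 1.04 for Cd74, -1.64 ± 1.05 for RT1-Da, -1.82 ± 1.05 for RT1-Db1, -1.48 ± 1.05 for RT1-Bb and -0.58 ± 0.47 for RT1-DMa, with adjusted p from 0.367 to 0.550 by limma. These errors carry the spread of the TBI rats, which are not part of the comparison. With only these 2 groups in the fit, 4 of the 5 genes were called lower, against 2.73% of all tested probes. Cd74 was then 3.63-fold lower (SE 0.20, adjusted p = 0.00904 by limma), RT1-Da 3.12-fold (SE 0.13, adjusted p = 0.00312), RT1-Db1 3.54-fold (SE 0.21, adjusted p = 0.0109) and RT1-Bb 2.79-fold (SE 0.31, adjusted p = 0.0498). RT1-DMa was 1.49-fold lower (adjusted p = 0.0914). Without TBI rat 1 the fit of the 3 groups called these 4 genes lower, against 2.77% of all tested probes. Without TBI rat 2 or without TBI rat 3, none was called. TBI rat 1 is not part of this comparison, and the differences were the same without it (-1.86 for Cd74), with smaller errors. The calls without it are thus no independent evidence of lower levels.

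The HSC + TBI against TBI comparison asks whether irradiated liver differed with pretreatment. All 5 genes were lower in every HSC + TBI rat than in any TBI rat, as were 8.74% of all tested probes, but TBI rat 1 (10.83 for Cd74) was close to the highest HSC + TBI rat (10.48). On 4 of the 9 probes the groups overlapped, namely the second probes of RT1-Da, RT1-Db1 and RT1-Bb and the third probe of RT1-Db1. The differences of the group means were large, at -3.42 ± 1.04 for Cd74, -3.44 ± 1.05 for RT1-Da, -3.54 ± 1.05 for RT1-Db1, -3.39 ± 1.05 for RT1-Bb and -2.03 ± 0.47 for RT1-DMa. All 5 had an unadjusted p under 0.05, as had 4124 of the 25369 probes, but none was called, with adjusted p from 0.100 to 0.175 by limma, against 0.796% of all tested probes called. Without TBI rat 1 all 5 were called lower, against 2.92% of all tested probes, with 30.1-fold for Cd74 and 6.43-fold for RT1-DMa. Without TBI rat 2 or 3 none was called. TBI rat 1 is the rat whose class II values stood apart, so the calls without it are no independent evidence of a difference. The HSC + TBI rats were below all 6 other rats for all 5 genes, an arrangement that 3.24% of all tested probes shared.

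**Figure D2:**
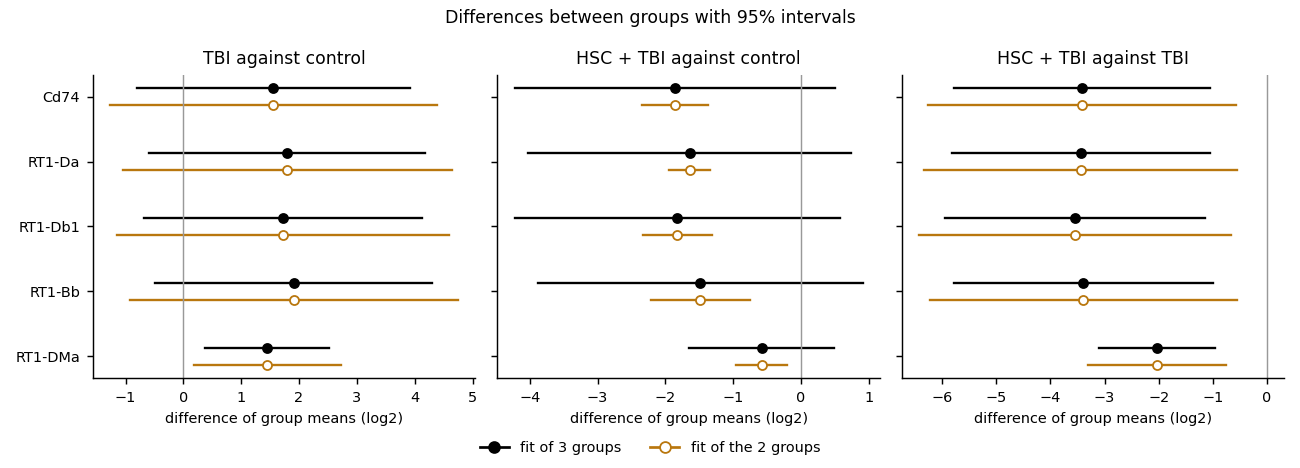
Differences of group means (log2) of 5 MHC class II genes in 3 comparisons, with 95% intervals from limma. Filled points come from the fit of all 3 groups and open points from a fit of the 2 groups compared. The intervals of the HSC + TBI against control comparison shrink when the TBI rats are out of the fit, and those of the other 2 comparisons stay wide.

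The split among the TBI rats was then looked for in other probes. The pattern and its margin were taken from the class II values, so that class II probes meet it is given by the choice, and the counts say only how many other probes did. The tested probes were searched for those in which TBI rats 2 and 3 were both over 2 (log2, 4-fold) above the highest control while TBI rat 1 was below the lowest control. Of 25369 probes, 8 met this, and 6 of them were class II probes on the list, 1 for Cd74, 2 for RT1-Da, 2 for RT1-Db1 and 1 for RT1-Bb. The remaining 2 were a probe of RT1-Db2 and a probe with no gene name here. Without the condition on TBI rat 1, 59 probes met it, of which 7 were class II probes. With a margin of 1 (2-fold) in place of 2, the count was 24 probes with 6 class II probes among them, with no margin it was 520 with 6, and with a margin of 3 (8-fold) it was 3 with 2.

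**Figure D3:**
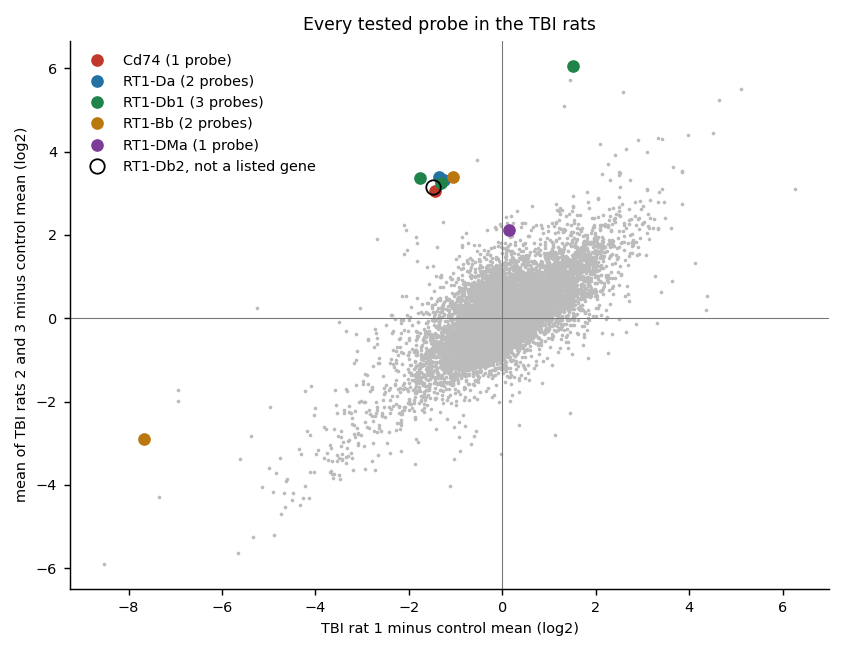
The plot shows each of the 25369 tested probes in the TBI rats, as the difference of TBI rat 1 from the control mean (log2, horizontal) and of the mean of TBI rats 2 and 3 (log2, vertical). Grey points are other probes, coloured points are the 9 tested class II probes, and the open circle is RT1-Db2. A class II cluster at the upper left lies over 3 above the controls in TBI rats 2 and 3 and below them in TBI rat 1, while RT1-DMa, the second RT1-Bb probe and the third RT1-Db1 probe lie elsewhere.

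RT1-Bb and RT1-Db1 each had a probe that went its own way. The second probe of RT1-Bb read 9.85, 10.78 and 11.71 in the controls, 3.12, 2.25 and 13.51 in the TBI rats, and 8.41, 1.35 and 8.29 in the HSC + TBI rats. It was not above background in TBI rats 1 and 2 and in HSC + TBI rat 2. Thus TBI rat 2, in which the first probe of RT1-Bb was 11.45-fold above the control mean, gave no signal above background on the second. The third probe of RT1-Db1 was dim in the controls (4.49, 1.67 and 2.78) and the HSC + TBI rats (4.0, 4.81 and 3.81), and read 4.50, 9.55 and 8.54 in the TBI rats. It was the sole class II probe higher in all 3 TBI rats than in all controls, with TBI rat 1 (4.50) level with control rat 1 (4.49). It was above background in 1 control and 1 HSC + TBI rat and passed the filter through the TBI rats alone, so no difference is given for it. What differs between these probes was not tested, since their sequences were not used here.

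**Figure D4:**
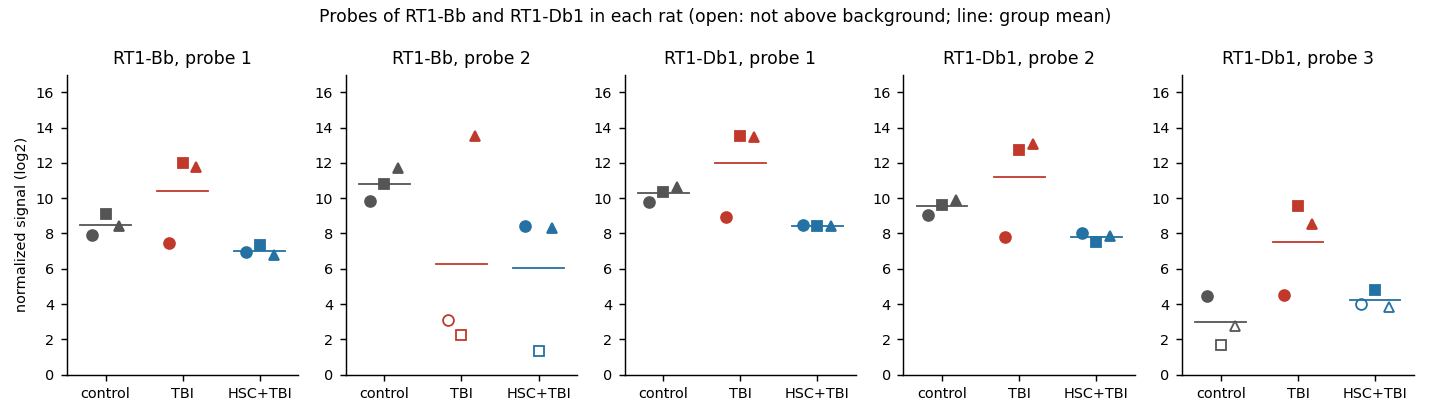
Normalized signal (log2) of the 2 probes of RT1-Bb and the 3 probes of RT1-Db1 in each of 9 rats. Open symbols are not above background and lines are group means. The second RT1-Bb probe lies between 1.35 and 3.12 in TBI rats 1 and 2 and HSC + TBI rat 2 and above 8 in the other rats, whereas the first probe follows the other class II genes.

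The genes most like the class II set were looked for over the 9 rats. The measure was the correlation of a gene's log2 signal with the mean of the 5 tested class II genes, over 9 rats and 8532 named genes above background on all arrays. The highest correlations were those of RT1-Db2 (r = 0.99), Itgb3bp (r = 0.99), Vopp1 (r = 0.99), Srgn (r = 0.99), Ppt2 (r = 0.98), Mefv (r = 0.98), Klra5 (r = 0.98), Neurl3 (r = 0.98), Cd83 (r = 0.98) and Plek (r = 0.98). With the group means removed, the correlations of these 10 genes were still from 0.96 to 0.99. The rats share their group and slide, and the correlation is a description of these 9 livers. RT1-Db2 read 8.05, 8.68 and 8.95 in the controls, 7.08, 11.79 and 11.64 in the TBI rats, and 6.80, 6.51 and 6.60 in the HSC + TBI rats. It is a close relative of RT1-Db1, and whether their probes share signal was not tested. Cd83, a surface protein of mature dendritic cells and B cells, read 8.88, 9.49 and 9.20, then 8.36, 10.56 and 10.45, then 8.09, 7.87 and 7.89. Srgn, a granule proteoglycan of blood-derived cells, read 9.88, 10.28 and 10.08, then 9.63, 11.10 and 11.30, then 9.33, 9.18 and 9.34. In both genes TBI rats 2 and 3 were the highest and the HSC + TBI rats the lowest, as for Cd74, with smaller differences.

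Of the other genes of the class II pathway, 16 of 19 listed were tested. They comprise endosomal proteases, the thiol reductase Ifi30, tetraspanins and the ubiquitin ligases that remove class II from the surface. In TBI against control none was called higher and 1 was called lower. This was Cst3, an inhibitor of cathepsins, which fell by 0.70 on the log2 scale (adjusted p = 0.0407 by limma). None was called in the comparisons with HSC + TBI. Cst3 was near a call in HSC + TBI against control, at -0.75 (adjusted p = 0.0512 by limma). Between the irradiated groups it differed by -0.05 (adjusted p = 0.904 by limma). Ctss, the cathepsin that trims the invariant chain, read 12.33, 12.95 and 12.60 in the controls, 12.37, 13.77 and 13.49 in the TBI rats, and 11.98, 12.18 and 12.07 in the HSC + TBI rats. TBI rats 2 and 3 were again the highest 2 of the 9, with smaller steps than the chain genes. Ctsb, a lysosomal protease, read from 15.76 to 16.32 over the 9 rats, with all 3 TBI rats above every other rat. RT1-DOa and RT1-DOb, the chains of the DM inhibitor, did not pass the filter on dim probes.

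Of the regulators of class II transcription, 17 of 23 listed were tested, and those named here were not called. The interferon gamma gene Ifng was above background on no array. Rfxank, a subunit of the complex that binds the X box, kept between 10.78 and 11.20, and Nfyb, a subunit of the complex that binds the Y box, between 9.83 and 10.45. Spi1, the myeloid factor PU.1, read 6.05, 7.40 and 7.30 in the controls, 6.13, 7.31 and 7.23 in the TBI rats and 5.66, 5.79 and 5.91 in the HSC + TBI rats, and was not called.

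Of the costimulation genes and class II receptors, 7 of 12 listed were tested and none was called in any comparison. Cd86, a costimulatory ligand on antigen-presenting cells, read 4.36, 5.29 and 4.72 in the controls, 4.13, 5.76 and 5.74 in the TBI rats, and 2.88, 3.45 and 3.95 in the HSC + TBI rats, none of them above background. Cd40, the receptor through which T cells activate these cells, read from 7.41 to 8.17 over the 9 rats. The HSC + TBI rats (7.41, 7.53 and 7.66) were below every control and every TBI rat. Cd4, the class II receptor of helper T cells, read 4.97, 5.55 and 5.23 in the controls, 5.09, 6.76 and 6.04 in the TBI rats and 5.18, 5.02 and 5.17 in the HSC + TBI rats.

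Markers of the liver cells that carry class II moved partly with it. Of 15 Kupffer cell and macrophage markers listed, 13 were tested and none was called. Their mean log2 signal ranged from 11.11 to 11.71 in the controls, from 11.34 to 12.24 in the TBI rats and from 10.91 to 10.97 in the HSC + TBI rats. In TBI rats 2 and 3, 11 and 10 of the 13 were above every control, by a median of 0.68 and 0.46 over the control mean, against 3.22 in both rats for the class II genes, and in TBI rat 1, 1 of 13 was. In HSC + TBI rats 1, 2 and 3, 8, 10 and 9 of the 13 were below every control. Of all 25369 tested probes, 4827 had TBI rats 2 and 3 both above every control. All 3 HSC + TBI rats were below every control in 13.7% of all tested probes. These values over all probes take the rats together, while the marker counts are per rat, so they are not directly comparable. Among the markers that did not follow, Mrc1 read 10.80, 10.85 and 10.81 in the HSC + TBI rats, above every control. Cd163 read 8.09, 8.19 and 7.62 in the TBI rats, within the range of the controls. Clec4f, the lectin that marks Kupffer cells, read 15.25, 15.73 and 15.43 in the controls, 15.14, 16.04 and 15.55 in the TBI rats and 14.65, 14.69 and 14.81 in the HSC + TBI rats. Csf1r, the receptor on which macrophages depend, read 8.14, 8.95 and 8.76, then 8.53, 9.94 and 9.60, then 8.19, 7.98 and 8.07. The part of macrophage number in the class II levels was not tested.

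B cell markers did not move as one. Of 15 B cell markers 6 were tested, with a mean log2 signal of 6.05 to 6.24 in the controls, 4.96 to 5.64 in the TBI rats and 4.39 to 4.88 in the HSC + TBI rats. Cd79b, a subunit of the B cell receptor, was above background in the controls only, and was at least 4.97-fold lower in TBI and at least 2.90-fold lower in HSC + TBI. Cd79b passed the filter through the controls alone, so no p is given for it. The means and medians of the 6 markers include Cd79b. It was not above background in any TBI rat, at 1.99 in TBI rat 1 and 2.14 and 2.59 in TBI rats 2 and 3. Bank1, a B cell scaffold protein, read 4.97, 5.96 and 5.48 in the controls, 4.03, 5.59 and 5.57 in the TBI rats and 4.02, 4.07 and 4.17 in the HSC + TBI rats. Cd22, an inhibitory receptor of B cells, read 7.03, 7.06 and 7.13, then 7.23, 7.69 and 7.93, then 6.96, 6.87 and 6.97. Neither was called, but in both, as in the class II genes, TBI rat 1 was the lowest TBI rat and every HSC + TBI rat was below every control. Fcrla read 5.97, 6.29 and 6.28 in the controls, 3.92, 5.73 and 5.27 in the TBI rats and 3.36, 3.85 and 2.15 in the HSC + TBI rats, with TBI rat 1 again the lowest TBI rat. The median of the 6 markers against the control mean was -1.65 in TBI rat 1 and -0.17 and -0.41 in TBI rats 2 and 3. Pou2af1, a B cell coactivator, was 3.53-fold lower in TBI and 4.88-fold lower in HSC + TBI (adjusted p = 0.00434 and 0.00214). Fcrla was called lower in HSC + TBI only and Vpreb3 was called higher in TBI only, and the difference between the irradiated groups was not called for either gene. Cr2, a complement receptor of B cells, was above background on no array. Of 10 T cell markers 6 were tested, and Lat was called lower in TBI and in HSC + TBI. Cd3g and Cd2 passed the filter through the controls alone, so no call against the controls is given for them. Both are part of the mean log2 signal of the 6 markers. This mean was 6.01 to 6.46 in the controls, 4.26 to 5.09 in the TBI rats and 4.69 to 4.87 in the HSC + TBI rats. Cd3g was above background in no HSC + TBI rat. Cd2, a T cell adhesion receptor, was called higher in HSC + TBI than in TBI. Cd2 was above background in no TBI rat and in 1 of 3 HSC + TBI rats, so no difference between these groups is given for it. The part of B cell or T cell number in the class II levels was not tested.

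Of 15 dendritic cell markers 6 were tested and none was called, and Xcr1 and Itgae were above background on no array. Their mean log2 signal ranged from 5.84 to 6.40 in the controls, from 6.19 to 6.25 in the TBI rats and from 5.66 to 6.25 in the HSC + TBI rats. Batf3, a factor of cross-presenting dendritic cells, read 5.85, 6.73 and 6.96, then 5.29, 6.71 and 6.20, then 5.18, 5.10 and 5.01. Of 10 sinusoidal endothelial markers 7 were tested and none was called. The tissue label held, since the hepatocyte marker Alb kept between 17.57 and 17.94 in all 9 rats, and of 10 hepatocyte markers tested 1, Cyp2c11, was called lower in TBI (adjusted p = 0.0454). The median of the hepatocyte markers against the control mean was between -0.11 and 0.03 in every rat.

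**Figure D5:**
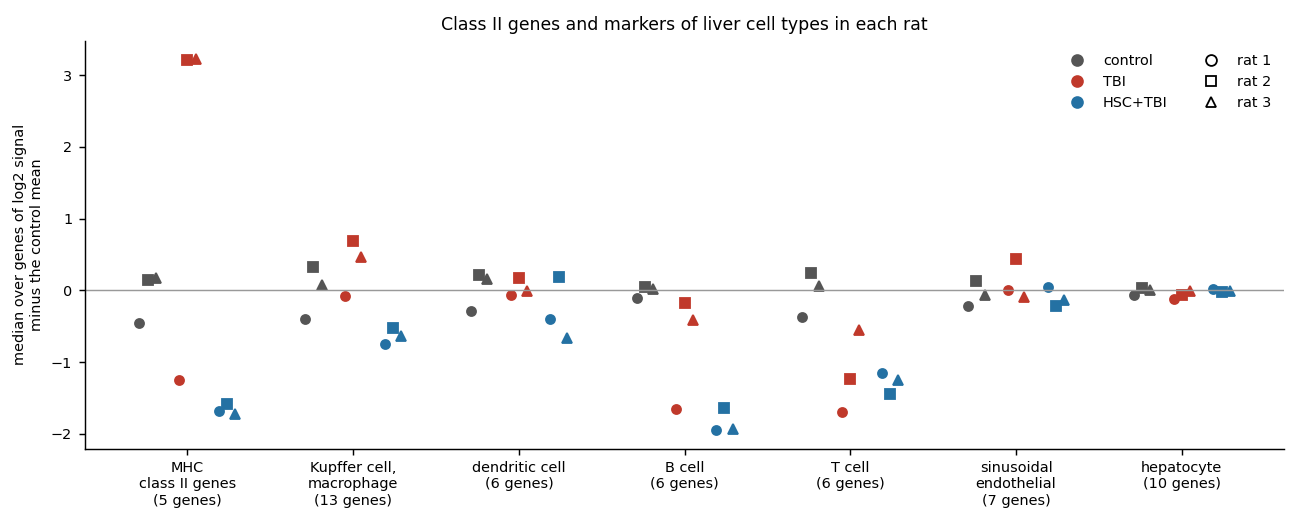
Median over the genes of a list of the log2 signal minus the control mean, for each of 9 rats, by list and group. The class II genes reach 3.22 in TBI rats 2 and 3, Kupffer cell and macrophage markers 0.68 and 0.46 in these rats, and B cell and T cell markers lie below 0 in all irradiated rats. The B cell and T cell lists include Cd79b, Cd3g and Cd2, which passed the filter through the controls alone.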

How the data were processed

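RNA of each liver was hybridised to 1 single-channel Agilent array of 41012 rat probes. Per the file headers, the authors read spot intensities with Feature Extraction 10.7.3.1. They also deposited log2 values normalized by quantiles, used here as an alternative. Outlier spots (84 to 115 of 43379 per array, none saturated) were left out of the processed signals, which were floored at 1 and turned into log2, then normalized by quantiles over 9 arrays and averaged per probe. Testing took in 25369 probes, those that every array of some group flagged above its background, with limma 3.58.1 in R 4.3.3 (lmFit, eBayes, Benjamini-Hochberg over all of them). The scripts were tested on simulated data. Genes were named by RefSeq accession through RefSeq genes of GRCr8, which named 16968 probes. A gene was counted by its brightest tested probe.

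The members and gene lists were chosen with earlier results of these data known. Named genes were every member, called list members with up to 4 more per list by highest signal, and the 10 genes most correlated with the class II mean. Some others were named after their values were seen, for their role. Genes dim in 1 group are given as at least N-fold where every array of the other group was above background. Arrays of a group shared slides: controls were on slide 1, TBI on slide 2, and HSC + TBI on slides 3 and 4, so slide and group cannot be told apart. The labels number the replicates and the study's text calls them rats, and 3 per group limits the precision. Group labels came from sample titles. Alternatives changed normalization, background correction, filter, fit, test, block and rats. Protein sequences were not used here. Results for some items of the gene lists are not reported here.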

Additional observations from a re-analysis of the deposited data

How the results depend on the processing

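The directions of Cd74, RT1-Da, RT1-Db1 and RT1-DMa held in all 3 comparisons in the 21 alternatives that gave a difference for each gene. In these, that of RT1-Bb held in all but TBI against control under normexp background correction (-1.80). In the main fit, the second probe of RT1-Bb also went the other way in TBI against control (-4.49), with 1 of 3 TBI arrays above background. Class II calls depended on the fit and on TBI rat 1. Of the 5 genes, the number called ranged from 0 to 5 (TBI against control), 0 to 4 (HSC + TBI against control) and 0 to 5 (HSC + TBI against TBI) when 1 rat was left out, with calls only without TBI rat 1. Their median differences ranged from 0.99 to 3.24, -1.76 to -1.55 and -4.91 to -2.64, and the probes called from 888 to 2392, 317 to 1028 and 28 to 948. In HSC + TBI against control, 4 genes were called with only the compared groups in the fit and by the methods' t-test unadjusted, and 1 after adjustment. In HSC + TBI against TBI the unadjusted t-test called 1. With slide as a random block, 5 genes were called in TBI against control and 5 in HSC + TBI against TBI, but the estimated correlation within a slide was negative (-0.33), which shrinks the errors.

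Over all probes, TBI against control had 1839 calls, with 665 under normexp, 1174 with only the compared groups, 145 by the adjusted t-test and 4528 with the slide block. HSC + TBI against control had 820, with 490 under normexp, 2061 and 100 by the t-test unadjusted and adjusted, and 2573 with the slide block. HSC + TBI against TBI had 202, with 6 under normexp, 109 without a filter, 40 on probes above background on all arrays, 49 with only the compared groups, 1366 and 2 by the t-test unadjusted and adjusted, and 2256 with the slide block. A 75th percentile shift moved the share of higher calls there from 29.2% to 13.7%. The cause of these changes was not tested.

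Rats of the same number in different groups did not deviate together (correlations from -0.14 to 0.19 over 9 pairs), so they share only a number. With replicate number as a block, the probes called in HSC + TBI against TBI were 97 in place of 202, and no class II gene was called in any comparison. Signals near background limit Ciita, RT1-Ba and the third probe of RT1-Db1.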

Other observations

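The ranges among the 3 rats of a group were set beside those of all probes. This measure and its cuts were chosen with the class II values known. That class II probes pass is thus given by the choice, and the counts say only how many other probes did. Among the 21750 tested probes above background on all 9 arrays, 20 differed by over 4 (log2, 16-fold) between the highest and the lowest TBI rat, and 6 of these 20 were class II probes on the list. In the controls 4 such probes passed that range and in the HSC + TBI rats 6 did, with no class II probe among them. The ranges among TBI rats were 4.53 for Cd74, 4.67 and 4.81 for the 2 probes of RT1-Da, 4.56 and 5.30 for the first 2 probes of RT1-Db1, and 4.57 for the first probe of RT1-Bb. At a range over 2 (4-fold), 312 probes passed among TBI rats, of which 6 were class II probes. RT1-DMa had a range of 1.97 and rank 330 among these probes.

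On the second probe of RT1-Bb, TBI rat 3 was at 13.51 and TBI rats 1 and 2 were not above background, so its range has no exact size. Over all 25369 tested probes, 47 had a range over 4 among TBI rats, of which 8 were class II probes, against 35 with none in the controls and 28 with 1 class II probe in the HSC + TBI rats. The 8 include the second probe of RT1-Bb, with values not above background, and the third probe of RT1-Db1. The latter passed the filter through the TBI rats alone.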
